A study of Mus musculus with 12 samples.

Results

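The genes described here are 10 members of the matrix metalloproteinase system of the mouse: the protease genes Mmp2, Mmp3, Mmp7, Mmp9, Mmp10, Mmp12, Mmp13 and Mmp14, and the inhibitor genes Timp1 and Timp3. They were taken by symbol from the count table, which lists 18514 genes, and all 10 were present and passed the filter on low counts, which left 15484 genes. They were measured by RNA sequencing of colorectal tissue from 12 male C57BL/6 mice, bought at the age of 4 weeks, with 3 mice in each of 4 groups. Ctrl mice received neither carcinogen nor exercise, and Ctrl_Swim mice swam for up to 90 minutes a day. Model mice received azoxymethane (AOM, a colon carcinogen, 10 mg/kg) and 3 cycles of drinking water with 2% dextran sulfate sodium (DSS, which injures the colon lining), the AOM/DSS protocol for tumors that arise in colitis. Model_Swim mice received the same AOM/DSS treatment and swam like the Ctrl_Swim mice, from 2 months before it until the end, and the mice of the unswum groups stood in shallow water. All groups are wild type, each library comes from whole tissue of 1 mouse, and in such tissue fewer cells of a type and less RNA per cell cannot be told apart.

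Matrix metalloproteinases (MMPs) are zinc proteases that are made as inactive precursors and cut collagens, laminins, elastin, cytokines and the precursors of other MMPs. Tissue inhibitors of metalloproteinases (TIMPs) bind to the active site and block it, so that matrix turnover depends on both. In the colon, fibroblasts, macrophages, neutrophils and injured or neoplastic epithelial cells are known sources, and transcription of several MMP genes is known to rise under interleukin-1 and tumor necrosis factor through AP-1 transcription factors.

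Of the 10 genes, 5 lie within one gene cluster. On the GRCm38.p6 build the cluster holds 10 MMP genes and spans 427.1 kb of chromosome 9, from 7272514 to 7699585. Mmp13 starts at 7272514, Mmp12 at 7344397, Mmp3 at 7445822, Mmp10 at 7502342 and Mmp7 at 7692090, all on the plus strand. The other members lie apart, Mmp2 on chromosome 8 (92827290 to 92853421), Mmp9 on chromosome 2 (164940326 to 164955850), Mmp14 on chromosome 14 (54431598 to 54442456), Timp3 on chromosome 10 (86300412 to 86349505) and Timp1 on chromosome X (20870166 to 20874737). Promoter windows of 300 bases from RefSeq (GRCm38.p6, 250 bases before to 50 after an annotated start) were at hand for 8 of the members, and were searched for TGANTCA, the core of the AP-1 site. The motif reads the same on both strands.

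Each of the 5 cluster members had the motif in the window of 1 annotated start. The 120 bases before the start are shown for these 5 genes because they carry the motif at a similar place, with TGANTCA in capitals and each sequence on the plus strand of chromosome 9.
Mmp13, chr9:7272394-7272513: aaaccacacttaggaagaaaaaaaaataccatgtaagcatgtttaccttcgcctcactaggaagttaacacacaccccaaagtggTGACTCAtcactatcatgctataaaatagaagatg
Mmp12, second annotated start, chr9:7347254-7347373: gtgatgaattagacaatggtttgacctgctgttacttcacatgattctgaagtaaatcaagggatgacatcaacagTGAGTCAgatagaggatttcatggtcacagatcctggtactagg
Mmp3, chr9:7445702-7445821: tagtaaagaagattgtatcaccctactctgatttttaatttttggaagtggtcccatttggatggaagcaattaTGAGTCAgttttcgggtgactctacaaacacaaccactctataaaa
Mmp10, chr9:7502222-7502341: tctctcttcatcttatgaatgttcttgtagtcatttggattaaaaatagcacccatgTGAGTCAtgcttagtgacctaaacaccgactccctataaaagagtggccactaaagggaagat
Mmp7, first annotated start, chr9:7691970-7692089: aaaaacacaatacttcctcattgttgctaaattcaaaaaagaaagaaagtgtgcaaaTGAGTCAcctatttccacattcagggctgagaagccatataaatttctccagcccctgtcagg

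The motif began 35 bases before the start in Mmp13, 44 in Mmp12, 46 in Mmp3 and 63 in both Mmp10 and Mmp7. Mmp13 carried the form with C in the middle and the other genes the form with G. The letters TATAAA, a core of the TATA box, stood between the motif and the start in Mmp13, Mmp3, Mmp10 and Mmp7. The other annotated starts of Mmp12 and Mmp7 and the windows of Mmp14, Timp1 and Timp3 did not hold TGANTCA. Among all 32851 promoter windows of the annotation 7.81% held it. Among the windows of genes tested here 5.99% did, and among those of genes higher in Model than in Ctrl 13.8%. Within the 120 bases shown it stood in 3.41%, 2.66% and 7.63% of these 3 sets of windows. A match of letters is a description and shows no binding.

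The libraries held from 17256953 to 19451055 counts in total, and 3 counts equal at most 0.174 CPM (counts scaled to library size). Levels of one gene are given in CPM after TMM scaling, and levels of different genes are compared in FPKM, which also divides by transcript length. A gene was called differential where edgeR's quasi-likelihood test gave an adjusted p under 0.05 and the fold change was over 2 or under 0.5. In untreated tissue the system was carried by a few genes. Mean FPKM in Ctrl mice was 35.2 ± 1.56 (SD, n = 3) for Mmp14, 34.7 ± 1.49 for Timp3 and 19.4 ± 2.16 for Mmp2, followed by 4.26 ± 2.51 for Mmp7, 1.91 ± 0.281 for Mmp9, 1.42 ± 0.332 for Mmp13, 1.26 ± 0.313 for Timp1, 0.646 ± 0.191 for Mmp10, 0.621 ± 0.181 for Mmp3 and 0.283 ± 0.233 for Mmp12. Of the neighbors in this order, Timp3 and Mmp2, Mmp2 and Mmp7, and Timp1 and Mmp10 had ranges that did not overlap, and all others overlapped. The counts behind the weakest of these genes were low, from 8 to 40 reads per Ctrl library for Mmp12.

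Some libraries stood apart before any comparison. The summed CPM of 14 pancreatic acinar genes was 49353 in Model 1 and 24102 in Model 3, and between 85.9 and 174 in the other 10 libraries. The summed CPM of 10 squamous epithelium genes lay between 4.52 and 6.07 in Ctrl, and was 49.0 in Ctrl_Swim 2, 3.09 in Ctrl_Swim 3, 356 in Ctrl_Swim 4, 519 in Model 1, 1426 in Model 2, 9.70 in Model 3 and between 110 and 1060 in Model_Swim. The colorectal label was met by the colon epithelium list, with all 10 markers in the tables and summed CPM from 12245 to 28988. No pair of libraries was identical. P-values set a group difference against the spread between these mice, which was estimated for each gene over all 4 groups.

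**Figure D1:**
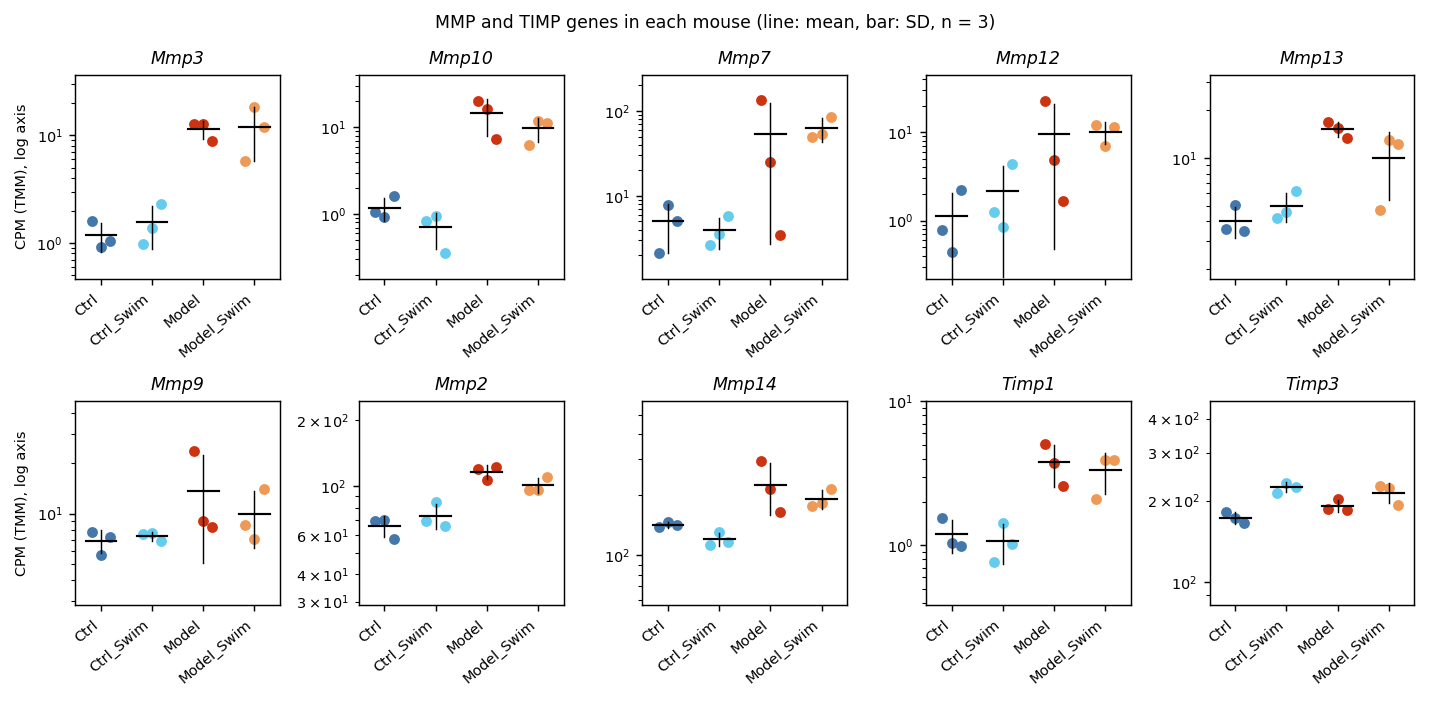
CPM of each of the 10 genes (log axis, one panel per gene) in the Ctrl, Ctrl_Swim, Model and Model_Swim groups; points are mice in the order of their numbers, the line is the mean and the bar the SD (n = 3), with the lower end of the bar stopped above 0 where the SD is nearly as large as the mean or larger. Mmp3 and Mmp10 lie higher in all 6 AOM/DSS mice than in all 6 untreated mice, while Mmp7 in the Model group runs from 3.44 to 134 CPM.

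The first question was how AOM/DSS changed the system in unswum mice. In Model compared with Ctrl, 6 of the 10 genes were called, all of them higher: Mmp3, Mmp7, Mmp10, Mmp12, Mmp13 and Timp1. Over all genes tested 6.21% were called higher and 7.43% in either direction. Mmp2 and Mmp14 had an adjusted p under 0.05 with a fold change under 2, so that 8 members passed the adjusted p alone and higher, as did 16.5% of all genes, and Mmp9 and Timp3 did not pass. In 8 of the 10 genes the lowest Model value exceeded the highest Ctrl value, which held for 21.0% of all genes. The median log2 fold change was 1.79 over the 10 genes and 0.0055 over all genes tested.

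The stromelysins Mmp3 and Mmp10, which cut a wide range of matrix proteins and activate other MMP precursors, gave the clearest separation. Mmp3 was at 1.60, 0.927 and 1.04 CPM in the Ctrl mice and at 12.8, 12.7 and 8.95 CPM in the Model mice. The groups did not overlap, and the lowest Model mouse lay several times above the highest Ctrl mouse. The log2 fold change was 3.26 ± 0.44 (SE), or 9.59-fold, with an adjusted p of 0.000806. Mmp10 was at 1.05, 0.927 and 1.59 CPM in Ctrl and at 20.3, 16.1 and 7.40 CPM in Model. Its groups did not overlap either, and its log2 fold change of 3.61 ± 0.45 (adjusted p = 0.000596) was the largest of the 10 genes in this comparison. The RNAs of these neighboring genes share sequence: 8.39% of the 50-base words of Mmp3 transcripts also occur in transcripts of Mmp10, so a small part of the reads could belong to either.

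Mmp13, the interstitial collagenase of rodents, cuts fibrillar collagen. Its levels were 3.59, 5.07 and 3.46 CPM in Ctrl and 16.8, 15.6 and 13.4 CPM in Model, with a log2 fold change of 1.92 ± 0.33 (adjusted p = 0.00230). The Model mice lay close together, in contrast to the next 2 genes.

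Mmp7, or matrilysin, which overlaps the antisense gene AV064505 on the opposite strand, is made by epithelial cells, activates defensins in Paneth cells and is known from intestinal adenomas. It was at 2.10, 7.90 and 5.06 CPM in Ctrl and at 134, 24.9 and 3.44 CPM in Model. The groups overlapped, because Model 3 lay within the Ctrl range while Model 1 was at 39.0 times the level of Model 3. The log2 fold change of 3.43 ± 0.98 had an adjusted p of 0.0220. Without Model 1 it was 1.52 with an adjusted p of 0.120, and leaving out Ctrl 1, Ctrl 2 or Ctrl 3 gave an adjusted p of 0.0791, 0.05004 or 0.0717 for Mmp7.

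Mmp12, the macrophage elastase, followed the same order of mice. Its levels were 0.773, 0.436 and 2.20 CPM in Ctrl and 22.5, 4.79 and 1.66 CPM in Model. Again Model 1 was highest and Model 3 lay within the Ctrl range. The log2 fold change was 3.08 ± 0.95 with an adjusted p of 0.0296. Without Model 1 it was 1.52 with an adjusted p of 0.158, and without Ctrl 1 or Ctrl 2 the adjusted p for Mmp12 was 0.0953 or 0.103. Mmp12 overlaps Mmp1b on the opposite strand, and the strand setting used in counting is not given in the sources used here.

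The gelatinases cut denatured collagen and basement membrane collagen. Mmp2, made mainly by stromal cells, was at 69.7, 70.4 and 57.7 CPM in Ctrl and at 119, 107 and 122 CPM in Model, 1.76-fold higher without overlap (log2 fold change 0.82 ± 0.11, adjusted p = 0.000785). Mmp9, stored in neutrophil granules and also made by macrophages, was at 7.78, 5.67 and 7.20 CPM in Ctrl and at 23.6, 9.04 and 8.32 CPM in Model. The groups did not overlap, but the log2 fold change of 0.99 ± 0.38 had an adjusted p of 0.0649, while DESeq2 called Mmp9 (1.001, adjusted p = 0.0264). For Mmp9 the value rested on Model 1, since it was 0.35 without that mouse, and 1.24 and 1.26 without Model 2 and Model 3, with adjusted p of 0.0459 and 0.0217.

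Mmp14 encodes MT1-MMP, a membrane-bound protease that activates the Mmp2 precursor in a complex with TIMP2. Its level was 138, 147 and 141 CPM in Ctrl and 294, 214 and 164 CPM in Model. All Model mice lay above all Ctrl mice, and the log2 fold change was 0.66 ± 0.17 (adjusted p = 0.0133).

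The inhibitors differed from each other. Timp1, a secreted inhibitor known to be induced in inflammation, was at 1.55, 1.04 and 0.990 CPM in Ctrl and at 5.04, 3.70 and 2.58 CPM in Model, a log2 fold change of 1.66 ± 0.37 (adjusted p = 0.00712) without overlap. Timp3, which is bound to the matrix and also inhibits ADAM proteases, was at 181, 172 and 165 CPM in Ctrl and at 186, 203 and 185 CPM in Model. The Timp3 log2 fold change was 0.15 ± 0.075, with a 95% interval from -0.016 to 0.31 and an adjusted p of 0.146. Timp1 lies within the gene Syn1 and Timp3 within Syn3, both on the opposite strand.

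**Figure D2:**
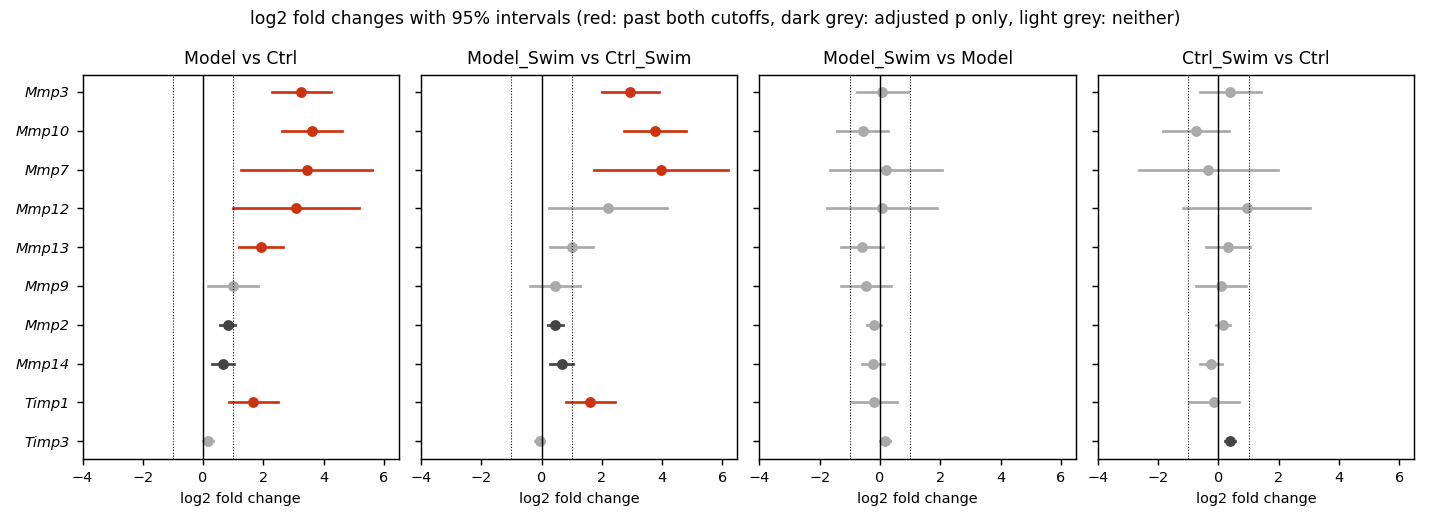
log2 fold changes of the 10 genes (points) with 95% intervals (lines) in the comparisons Model vs Ctrl, Model_Swim vs Ctrl_Swim, Model_Swim vs Model and Ctrl_Swim vs Ctrl; dotted lines mark the cutoffs of 2-fold. In red are genes past the adjusted p and the fold cutoffs, 6 in Model vs Ctrl and 4 in Model_Swim vs Ctrl_Swim, and in dark grey genes past the adjusted p alone.

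The second question was the same response in mice that swam. In Model_Swim compared with Ctrl_Swim, 4 of the 10 genes were called, all higher, where 0.924% of all genes tested were called higher and 1.00% in either direction. They were Mmp3, Mmp7, Mmp10 and Timp1. Mmp2 and Mmp14 again passed the adjusted p alone, which 3.49% of all genes did in this direction. In 7 members every Model_Swim mouse lay above every Ctrl_Swim mouse, as in 15.9% of all genes. The median log2 fold change over the 10 genes was 1.31 against -0.010 over all genes tested.

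Mmp10 was at 0.822, 0.958 and 0.358 CPM in Ctrl_Swim and at 6.27, 11.9 and 11.2 CPM in Model_Swim, and Mmp3 was at 0.986, 1.38 and 2.30 CPM and at 5.83, 18.4 and 11.98 CPM. Both were separated without overlap, with log2 fold changes of 3.77 ± 0.47 (adjusted p = 0.00342) for Mmp10 and 2.95 ± 0.43 (adjusted p = 0.00609) for Mmp3. Mmp7 was at 2.63, 3.51 and 5.72 CPM in Ctrl_Swim and at 48.7, 53.4 and 85.1 CPM in Model_Swim. Here the groups did not overlap, and the Model_Swim mice differed by 1.75-fold among themselves. The Mmp7 log2 fold change was 3.97 ± 1.01 with an adjusted p of 0.0470. This call was lost on leaving out any Ctrl, Ctrl_Swim or Model_Swim mouse, with log2 fold changes between 3.67 and 4.34 and adjusted p between 0.0670 and 0.151.

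Timp1 was at 0.767, 1.44 and 1.02 CPM in Ctrl_Swim and at 2.09, 3.92 and 3.92 CPM in Model_Swim, a log2 fold change of 1.62 ± 0.37 (adjusted p = 0.0348). All Model_Swim mice lay above all Ctrl_Swim mice. The Timp1 call was lost without Ctrl 2 or Ctrl 3 (adjusted p of 0.0552 and 0.0533), without any one of the Ctrl_Swim mice (0.116, 0.0660 and 0.0877) and without Model_Swim 2 or Model_Swim 3 (0.109 in both cases).

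Mmp13 and Mmp12 were not called in the swimming mice by edgeR with all 12 mice. Mmp13 was at 4.22, 4.58 and 6.18 CPM in Ctrl_Swim and at 4.73, 12.9 and 12.3 CPM in Model_Swim, where Model_Swim 1 lay within the Ctrl_Swim range. The Mmp13 log2 fold change was 1.00 ± 0.33 (adjusted p = 0.102), and 1.33 with an adjusted p of 0.0216 without Model_Swim 1. DESeq2 called Mmp13 with all mice (1.004, adjusted p = 0.0309). Mmp12 was at 1.26, 0.851 and 4.40 CPM in Ctrl_Swim and at 11.9, 6.91 and 11.5 CPM in Model_Swim. Its groups did not overlap, and the Mmp12 log2 fold change of 2.21 ± 0.89 had an adjusted p of 0.174. An edgeR fit of only the groups compared called Mmp12 (2.21, adjusted p = 0.0487).

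Of the more abundant genes, Mmp2 was at 69.5, 84.6 and 66.3 CPM in Ctrl_Swim and at 96.6, 96.2 and 110 CPM in Model_Swim (log2 fold change 0.46 ± 0.11, adjusted p = 0.0394). Mmp14 was at 113, 130 and 117 CPM and at 175, 181 and 214 CPM (0.66 ± 0.17, adjusted p = 0.0465). In both genes the groups did not overlap, and both had fold changes under 2. Mmp2 no longer passed the adjusted p without Ctrl 1, Ctrl 2, Ctrl_Swim 2, Ctrl_Swim 4 or any Model_Swim mouse (0.0573 to 0.128), and Mmp14 without Model 2 or any Ctrl, Ctrl_Swim or Model_Swim mouse (0.0607 to 0.160). Mmp9, at 7.51, 7.66 and 6.85 CPM in Ctrl_Swim and 8.59, 7.07 and 14.05 CPM in Model_Swim, and Timp3, at 214, 233 and 225 CPM and 226, 222 and 193 CPM, overlapped between the groups, with adjusted p of 0.546 and 0.647.

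Whether the AOM/DSS response differed between swimming and unswum mice was tested as an interaction. With edgeR 0 of the 10 genes and 0 of all genes tested passed, although 19.0% of all genes had an unadjusted p under 0.05, and DESeq2 called 0 of the 10. Mmp2 was the one member with an unadjusted p under 0.05 (0.0419, adjusted p = 0.244), its log2 fold change being lower by 0.36 in swimming mice, with 0.82 in unswum and 0.46 in swimming mice. For Mmp13 the difference was -0.92 with a 95% interval from -1.93 to 0.092, and for Mmp10 it was 0.16 with an interval from -1.22 to 1.54. The genes called by edgeR in one of these comparisons and not in the other (Mmp12 and Mmp13) were therefore not shown to differ between them. Averaged over swimming, the 6 AOM/DSS mice against the 6 untreated mice gave 6 calls, the same genes as in Model compared with Ctrl, where 3.54% of all genes tested were called higher.

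The third question was whether swimming changed the system in AOM/DSS mice. In Model_Swim compared with Model 0 of the 10 genes were called by edgeR, 0 had an unadjusted p under 0.05, and DESeq2 and limma called 0. Over all genes 0.0710% were called and 13.6% had an unadjusted p under 0.05. The log2 fold changes lay between -0.61 for Mmp13 and 0.20 for Mmp7, with a median of -0.20 against -0.0085 over all genes, and all 95% intervals included 0. The intervals were wide for the genes that varied most: from -1.66 to 2.07 for Mmp7, from -1.76 to 1.89 for Mmp12, from -1.42 to 0.27 for Mmp10 and from -0.77 to 0.92 for Mmp3. Changes of 2-fold in either direction in Mmp7 and Mmp12 were thus not excluded with these mice. A 2-fold decrease was not excluded for Mmp10, Mmp9 (-1.28 to 0.35) or Mmp13 (-1.31 to 0.084). The intervals of Mmp3, Mmp2 (-0.44 to 0.039), Mmp14 (-0.60 to 0.13), Timp1 (-0.96 to 0.58) and Timp3 (-0.0046 to 0.32) did not include a 2-fold change.

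Mmp13 was the only member whose groups did not overlap here. Every Model_Swim mouse (4.73, 12.9 and 12.3 CPM) lay below every Model mouse (16.8, 15.6 and 13.4 CPM), while its log2 fold change of -0.61 ± 0.32 had an adjusted p of 0.433, and 8.57% of all genes lay lower without overlap in this comparison. Mmp7 differed between these groups in its spread: the Model mice lay between 3.44 and 134 CPM and the Model_Swim mice between 48.7 and 85.1 CPM.

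In mice without AOM/DSS, Ctrl_Swim compared with Ctrl, 0 of the 10 genes were called by edgeR and 0 by DESeq2, where edgeR called 0.168% of all genes. Timp3 was the one member with an unadjusted p under 0.05, which 17.6% of all genes had. It was at 181, 172 and 165 CPM in Ctrl and at 214, 233 and 225 CPM in Ctrl_Swim, so that all swimming mice lay above all others, and its fold change of 1.297 (log2 fold change 0.38 ± 0.075) had an adjusted p of 0.0465. By adjusted p alone 0.969% of all genes passed. Leaving out any Ctrl mouse (adjusted p from 0.134 to 0.159), any Ctrl_Swim mouse (0.0572 to 0.156), or Model_Swim 1 or Model_Swim 2 (0.0618 and 0.0723) took Timp3 over the threshold. Mmp14 moved the other way without overlap, from 138, 147 and 141 CPM to 113, 130 and 117 CPM, with an adjusted p of 0.470. Groups without overlap were found for 27.4% of all genes in this comparison.

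Summed over the genes, the make-up of the MMP transcripts differed between groups. The 8 MMP genes together came to 60.7 to 69.1 FPKM in Ctrl, 57.5 to 71.9 in Ctrl_Swim, 102 to 277 in Model and 135 to 195 in Model_Swim. Mmp2 and Mmp14 made up 80.9% to 88.9% of this sum in the 6 untreated mice. In Model 1, Model 2 and Model 3 they made up 41.9%, 65.0% and 80.0%, and in Model_Swim 47.3% to 56.8%. The share of Mmp7 was 2.88% to 9.79% in untreated mice, 44.1%, 16.2% and 3.05% in the Model mice and 31.6% to 39.8% in Model_Swim. With 122 FPKM in Model 1, 48.4 in Model_Swim 2 and 77.4 in Model_Swim 3, Mmp7 had the highest level of the 10 genes in these 3 mice, and Timp3 or Mmp14 had it in the other 9.

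The ratio of the MMP sum to the sum of Timp1 and Timp3 was 1.61 to 1.91 in Ctrl, 1.27 to 1.35 in Ctrl_Swim, 6.02, 2.91 and 2.39 in Model, and 2.65, 2.92 and 4.205 in Model_Swim. All AOM/DSS mice lay above all untreated mice, and all Ctrl_Swim mice below all Ctrl mice. With all 20 MMP genes of the tables and all 4 TIMP genes, the ratio was 1.58 to 1.71 in Ctrl, 1.05 to 1.22 in Ctrl_Swim, 1.73 to 3.37 in Model and 1.83 to 2.63 in Model_Swim. These are ratios of RNA, without a test, and say nothing of enzyme activity. Timp1 took 1.85% to 4.30% of the 2 TIMP genes' FPKM in untreated mice and 4.64% to 12.5% in AOM/DSS mice, so Timp3 remained the main inhibitor transcript of the pair in all 12 mice.

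**Figure D3:**
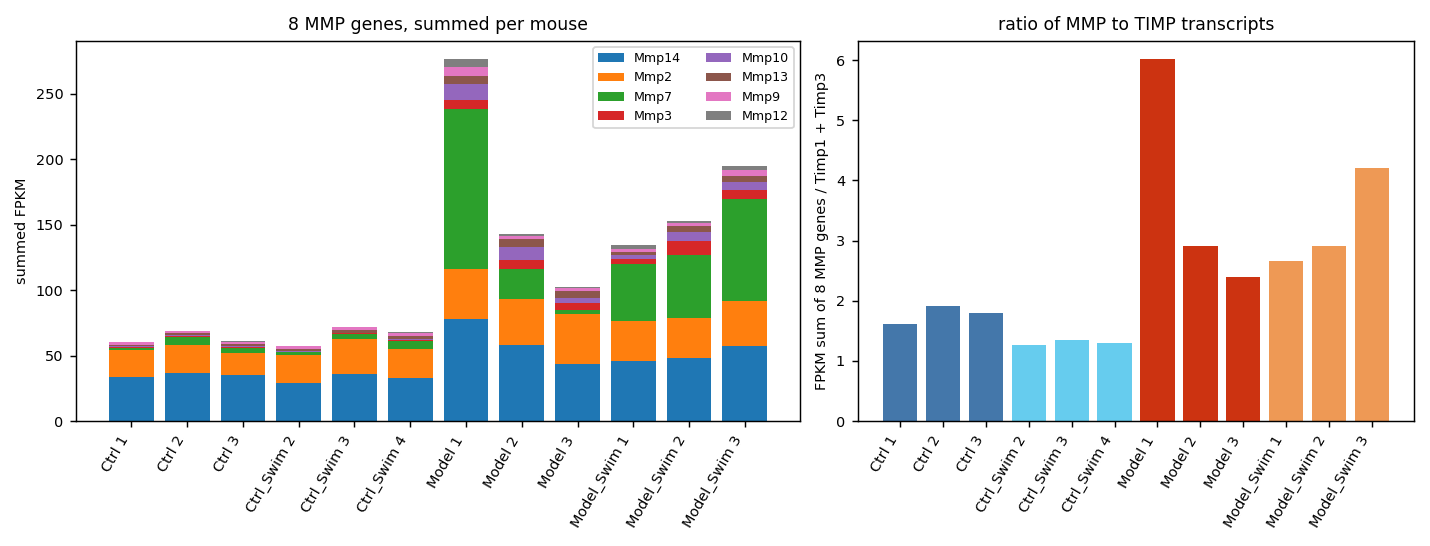
Left, FPKM of the 8 MMP genes stacked for each of the 12 mice; right, the ratio of that sum to the FPKM of Timp1 plus Timp3, with bars colored by group. Mmp2 and Mmp14 fill most of the bar in untreated mice, Mmp7 is the largest segment in Model 1, Model_Swim 2 (narrowly) and Model_Swim 3, and the ratio is at least 2.39 in all AOM/DSS mice and at most 1.91 in all others.

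The rest of the family was taken from a list of 15 further MMP genes, of which 12 were in the tables and 10 were tested. In Model compared with Ctrl, 2 of the 10 were called, both higher. Mmp8, the neutrophil collagenase in the same cluster, had 1, 0 and 1 counts in Ctrl and 26, 8 and 2 counts in Model, and 1, 4 and 6 counts in Ctrl_Swim and 5, 11 and 40 in Model_Swim. The Ctrl counts were under the limit of 3, so no fold is given, and the adjusted p was 0.0357. Mmp25, a leukocyte membrane MMP, was at 1.60, 0.491 and 1.21 CPM in the Ctrl mice and at 3.002, 2.94 and 2.12 CPM in the Model mice (log2 fold change 1.29 ± 0.41, adjusted p = 0.0325). Mmp11, Mmp19, Mmp23 and Mmp28 passed the adjusted p alone. In Model_Swim compared with Ctrl_Swim none of the 10 was called by edgeR, and Mmp19 passed the adjusted p alone.

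Of the 10 genes in the chromosome 9 cluster, 8 were in the tables and 6 were tested, and all 6 were called higher in Model than in Ctrl, among them the 5 members Mmp3, Mmp7, Mmp10, Mmp12 and Mmp13. Of the 12 tested MMP genes outside the cluster 1 was called, Mmp25, and of all genes tested 6.21% were called higher. In Model_Swim compared with Ctrl_Swim 3 of the 6 cluster genes were called (Mmp3, Mmp7 and Mmp10), where 0.924% of all genes tested were called higher. The Model vs Ctrl calls of Mmp7 and Mmp12 were lost under 11 and 10 of the 24 alternatives. The members were not chosen without regard to these results, and the contrast is given as a count with no test.

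**Figure D4:**
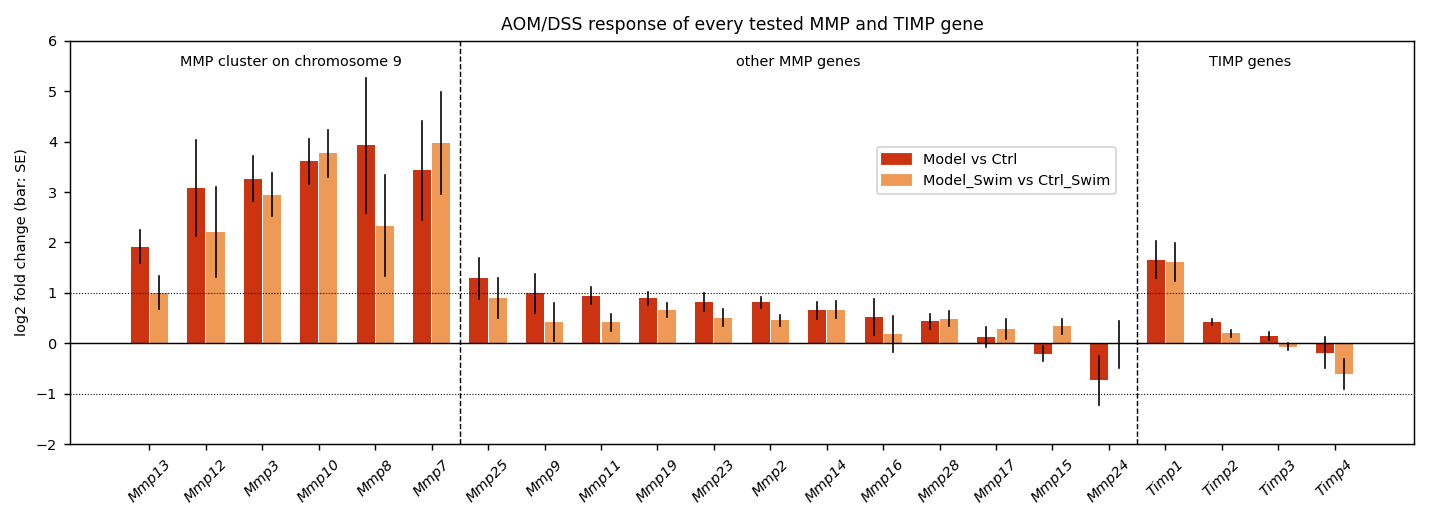
log2 fold changes with SE of every tested MMP and TIMP gene in Model vs Ctrl and Model_Swim vs Ctrl_Swim; genes of the chromosome 9 cluster stand on the left in the order of their position, other MMP genes in the middle in the order of their fold change in Model vs Ctrl, and TIMP genes on the right; dotted lines mark the cutoffs of 2-fold. The 5 cluster members lie between 1.92 and 3.61 in Model vs Ctrl and the MMP genes outside the cluster between -0.74 and 1.29, while the bars of Mmp8 are fitted values over Ctrl counts of 1, 0 and 1 and give no size.

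Of 8 further inhibitor genes, all tested, 2 were called higher in Model than in Ctrl. Spock2, a secreted proteoglycan that modulates MMP activity, ranged from 21.3 to 27.0 CPM in Ctrl and from 27.2 to 780 CPM in Model (adjusted p = 0.0151). A2m, the protease-trapping macroglobulin, was at a mean of 0.147 CPM in Ctrl, under the limit of 3 counts, and at 1.05 CPM in Model (adjusted p = 0.0474). Timp2, the partner of Mmp14 in activating Mmp2, was at 140 ± 5.67 CPM (SD, n = 3) in the Ctrl mice and at 187 ± 3.78 CPM in the Model mice, a log2 fold change of 0.42 ± 0.067 with an adjusted p of 0.00158 and a fold under 2.

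The plasminogen activator system makes plasmin, which activates MMP precursors. In Model compared with Ctrl 2 of 7 genes of this system were called, both higher: Plaur, the urokinase receptor (log2 fold change 1.28 ± 0.15), and Plat, the tissue plasminogen activator (1.28 ± 0.27). Both were also called higher in Model_Swim compared with Ctrl_Swim, with log2 fold changes of 1.38 ± 0.15 and 1.14 ± 0.26. Of 16 ADAM and ADAMTS proteases, relatives of the MMPs that shed surface proteins and cut proteoglycans, 5 were called higher in Model and 0 lower. Adamts4, an aggrecanase, had a log2 fold change of 2.74 ± 0.42, and Adam12 and Adam8 of 2.55 ± 0.52 and 1.83 ± 0.40. In the swimming mice 4 of the 16 were called higher.

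Cytokines known to raise MMP transcription, such as interleukin-1 and tumor necrosis factor, also had higher RNA levels after AOM/DSS. Of 11 cytokine genes listed, not all of which need act in this way, 7 were tested. Of these 6 were called higher in Model than in Ctrl and 3 in Model_Swim than in Ctrl_Swim. Il1b rose from 1.04 ± 0.30 to 17.8 ± 9.998 CPM in unswum mice (log2 fold change 4.09 ± 0.55, adjusted p = 0.000737) and Tnf by a log2 fold change of 3.32 ± 0.48 (adjusted p = 0.00101). Of 10 genes of AP-1 factors, Fos (1.10 ± 0.33) and Fosb (1.42 ± 0.41) were called higher in Model, and Fos, Fosl1 and Atf3 in Model_Swim against Ctrl_Swim. By adjusted p alone 4 of the 10 were higher in Model and 1 was lower, Jund (-0.25 ± 0.071, adjusted p = 0.0212). The median log2 fold change of the AP-1 list in Model was 0.64. RNA levels of these factors do not show their activity.

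Matrix proteins that MMPs cut were followed by a further list. Of 14 genes of matrix substrates 3 were called higher in Model than in Ctrl: the basement membrane laminin chain Lama5 (log2 fold change 1.38 ± 0.19), the fibrillar collagen chain Col1a1 (1.12 ± 0.18) and elastin, Eln (1.46 ± 0.30). A further 9 passed the adjusted p alone, and the median of the list was 0.76. In the swimming mice 0 were called with the cutoffs by edgeR and 11 passed the adjusted p alone. In Model_Swim compared with Model edgeR called 0 genes in each of these pathway lists.

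The cells known to make these enzymes were followed by marker lists. Of 9 fibroblast markers 0 were called in Model compared with Ctrl and 6 passed the adjusted p alone, all higher, with Dcn, decorin, at a log2 fold change of 0.78 ± 0.082. The summed fibroblast level was 557 to 601 CPM in Ctrl and 864 to 1001 CPM in Model. Of 10 macrophage and monocyte markers 4 were called higher, among them Cd68 (1.21 ± 0.14) and Fcgr1 (1.69 ± 0.31), with sums of 238 to 259 CPM in Ctrl and 381 to 427 CPM in Model. The part of these cells in the changes of Mmp2, Mmp12, Mmp13 and Mmp14 was not tested.

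Neutrophil markers divided the Model mice. Of 11 genes 8 were tested and 5 were called higher in Model, among them the receptor gene Csf3r (2.05 ± 0.32), and their sum was 12.5 to 23.3 CPM in Ctrl, 328 in Model 1, 417 in Model 2, 22.3 in Model 3, and 51.1, 623 and 421 in the Model_Swim mice. Mmp9 did not follow this order, with its highest level of 23.6 CPM in Model 1 and 9.04 CPM in Model 2. Much of the neutrophil sum was Ltf, with a mean of 174 CPM in Model and 270 CPM in Model_Swim. The mean log2 CPM of the list, which weighs all its genes alike, lay between -0.58 and -0.28 in Ctrl. It was 4.21 in Model 1, 3.39 in Model 2 and 0.87 in Model 3, the same order as Mmp9 in these mice. In Model_Swim 1, Model_Swim 2 and Model_Swim 3 it was 1.13, 3.23 and 4.43. Mmp9 was at 8.59, 7.07 and 14.05 CPM there, highest in the same mouse but otherwise in another order. Mmp3 and Mmp10 in Model 3 were at 8.95 and 7.40 CPM, above all untreated mice, and the part of neutrophils in the members' values was not tested.

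Squamous epithelium markers, keratins and other genes of stratified epithelia such as skin, were called higher in 8 of 10 cases in Model compared with Ctrl. They were nearly at the Ctrl level in Model 3, and were raised in Ctrl_Swim 2 and more so in Ctrl_Swim 4. In Ctrl_Swim 4 Mmp10 had its lowest level of all 12 mice (0.358 CPM). Mmp3 (2.30 CPM), Mmp12 (4.40 CPM) and Mmp13 (6.18 CPM) had their highest level of the 6 untreated mice there. Mmp7 and Mmp12 were lowest in Model 3 among the AOM/DSS mice and the squamous sum was too, and the part of squamous tissue in the members' values was not tested. With the squamous list as a covariate, the log2 fold changes in Model compared with Ctrl were 1.56 for Mmp7 (adjusted p = 0.414), 1.45 for Mmp12 (0.366) and 1.40 for Timp1 (0.0606), and with the acinar list they were 2.13 (0.226), 2.06 (0.253) and 1.49 (0.0603). Mmp3, Mmp10 and Mmp13 were called with either covariate. Both lists themselves differed between Model and Ctrl, so these fits cannot separate tissue content from AOM/DSS. The acinar genes, all 14 called higher in Model, were high in Model 1 and Model 3 and not in Model 2. Mmp3, Mmp10 and Mmp13 were at 12.7, 16.1 and 15.6 CPM in Model 2. In Model 1 they were at 12.8, 20.3 and 16.8 CPM, and in Model 3 at 8.95, 7.40 and 13.4 CPM. The part of acinar tissue in the members' values was not tested.

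Mmp7 is also a product of Paneth cells. Of 9 tested Paneth markers 6 were called lower in Model than in Ctrl and 0 higher. Their sum was 2395 to 3245 CPM in Ctrl, 595 to 1157 CPM in Model, 330 to 595 CPM in Ctrl_Swim and 585 to 1267 CPM in Model_Swim. Most of this sum was Ang4, with means of 2428.5, 642, 314 and 657 CPM in these groups. The mean log2 CPM of the list overlapped between them. It was 2.98 to 5.49 in Ctrl, 0.087 to 3.45 in Model, 2.64 to 4.37 in Ctrl_Swim and 3.27 to 3.63 in Model_Swim. The part of Paneth cells in the Mmp7 values was not tested. Endothelial, smooth muscle and colon epithelium markers had 0 calls by edgeR in Model compared with Ctrl, of 7, 8 and 10 tested. By adjusted p alone 2 endothelial markers were higher, 0 smooth muscle markers passed and 4 colon epithelium markers were lower. The summed colon epithelium level was 25292 to 28988 CPM in Ctrl and 12245 to 25393 CPM in Model. B cell and T cell markers had 6 of 8 and 5 of 7 called higher.

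**Figure D5:**
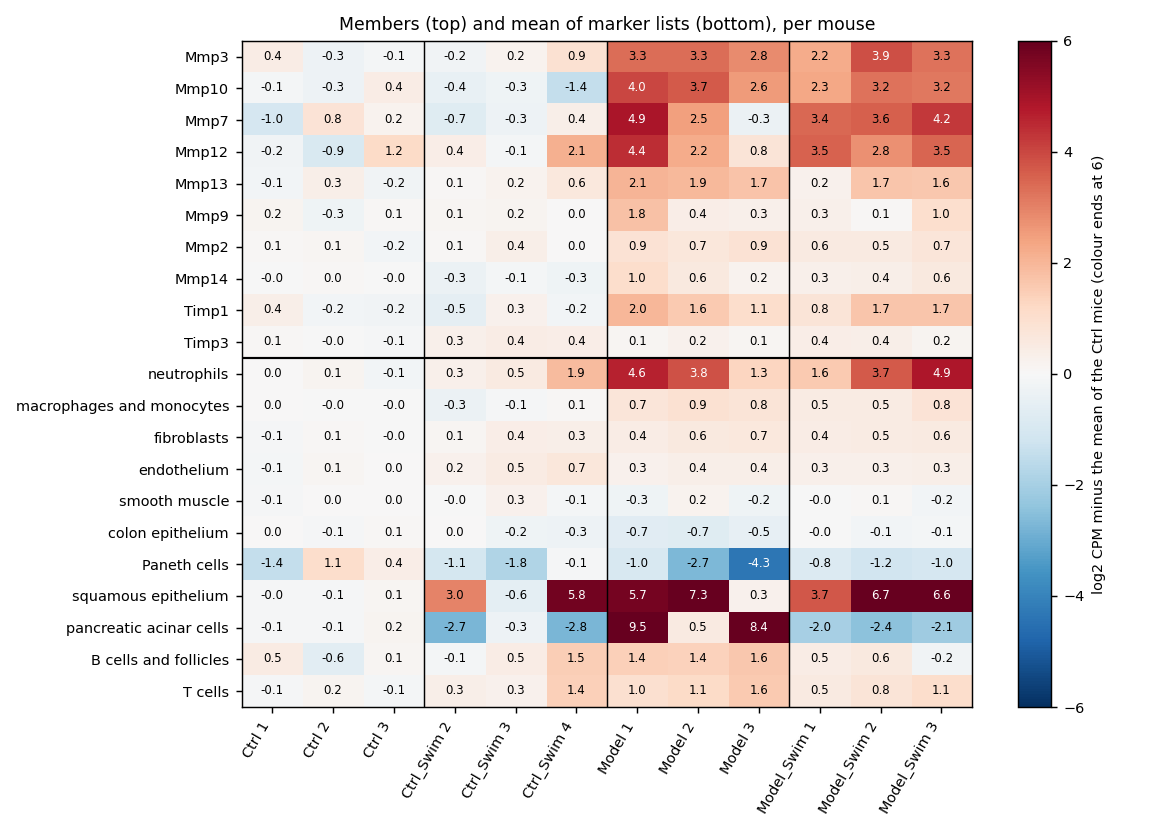
log2 CPM of the 10 genes (top) and mean log2 CPM of 11 marker lists (bottom) in each of the 12 mice, as the difference from the mean of the Ctrl mice; the color scale ends at 6 in both directions. Mmp3, Mmp10, Mmp13 and Timp1 are raised in all 3 Model mice, while in Model 3 Mmp7 (-0.34) and the squamous list (0.27) are near the Ctrl mean and the neutrophil list (1.298) is lower than in Model 1 and Model 2, and the acinar list is high in Model 1 and Model 3.

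Among themselves the members varied together to different degrees. Over the 12 libraries, which share the group differences and the scaling, the highest Pearson correlation of log2 CPM was 0.95 between Mmp3 and Timp1, followed by 0.94 between Mmp10 and Timp1, and both Mmp10 and Mmp14, and Mmp3 and Mmp10 were at 0.92. Mmp7 and Mmp12 were at 0.88. Over 13955 genes, those with the pattern most like a member were Lgi2 for Mmp3 (r = 0.98), Pld3 for Mmp10 (0.98), Wfdc18 for Mmp7 (0.97), Slc30a2 for Mmp12 (0.96), Cybb for Mmp13 (0.96), Arhgef2 for Mmp9 (0.94), Sfrp1 for Mmp2 (0.97), Egfr for Mmp14 (0.97), Col1a2 for Timp1 (0.98) and Sned1 for Timp3 (0.90). Chrdl2 was among the 3 nearest genes of both Mmp10 (0.98) and Timp1 (0.97). The correlations are descriptions over 12 mice in 4 groups.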

How the data were processed

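RNA of colorectal tissue was sequenced from 12 mice with the TruSeq Stranded mRNA kit. For the deposited tables the authors used Trimmomatic for trimming, HISAT2 for alignment (GRCm38.p6) and HTSeq-count for counting. Tool versions, annotation release and strand setting are not given in the sources used here. The deposited counts are whole numbers per gene without normalization. The deposited FPKM values were made by the authors with Cufflinks.

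Differences were tested on the counts by edgeR 4.0.16 in R 4.3.3 (TMM, filterByExpr with a minimum count of 10, quasi-likelihood fit of the 4 groups). P-values were adjusted by Benjamini-Hochberg over 15484 genes. The 95% intervals use the t distribution of that fit. Alternatives used DESeq2 1.42.0 and limma 3.58.1 on log2(FPKM + 1) and log2(FPKM + 0.1). The fit was tested on simulated counts with 4-fold changes in 200 of 15339 genes, and for Model vs Ctrl 174 were recovered. Log2 CPM used a prior count of 2. Members and lists were chosen with earlier results of these data known, and 1 gene of the plasminogen activator list is not reported here. From each list up to 4 genes with the lowest adjusted p among those called in Model vs Ctrl were open to naming, otherwise 2 of the highest CPM; all members and all called MMP genes were named, and up to 3 genes by correlation with each member. Genes named only for passing the adjusted p, Timp2, and AP-1 genes called only in swimming mice were chosen after their values were seen. Positions and promoters came from RefSeq (GRCm38.p6), and shared 50-base words and overlapping genes from GENCODE M21. The authors' columns hold no fold changes. Counting limits of 3 counts cover counting error only.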

Additional observations from a re-analysis of the deposited data

How the results depend on the processing

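Each comparison was recomputed under up to 24 alternatives, and no called change of a member turned its direction. Mmp3, Mmp10 and Mmp13 were called in Model vs Ctrl under all 24, with log2 fold changes of 2.20 to 3.56, 2.45 to 3.94 and 1.497 to 2.14. The number of members called there, 6, became 3 with the acinar list as a covariate and 3 with the squamous list, and 4 to 7 when 1 mouse was left out. Without Model 1 and Model 3 together, an alternative chosen after seeing the data, it was 5. In Model_Swim vs Ctrl_Swim 4 members became 2 with the squamous list as a covariate, 0 with a replicate block, and 2 to 4 when 1 mouse was left out. With adjusted p alone 1 member, Timp3, passed in Ctrl_Swim vs Ctrl in place of 0. Leaving out 1 mouse gave 6 calls in all 12 fits for the AOM/DSS average, and 0 for Model_Swim vs Model, Ctrl_Swim vs Ctrl and the interaction. Whether the replicate numbers paired the mice could not be settled with 3 mice per group. Of 15 same-numbered pairs 4 correlated over 0.1 (range -0.261 to 0.564), and with the block 4 members were called in Model vs Ctrl. A fit of only the groups compared was not run for the average and the interaction, which use all 4 groups. Depth limits the genes that were low in untreated mice most, with as few as 7 counts of Mmp10 and 8 of Mmp12 in a library. Over all genes the number called moved from 1150 to between 426 and 1679 in Model vs Ctrl, from 155 to between 18 and 324 in Model_Swim vs Ctrl_Swim, from 11 to between 1 and 327 in Model_Swim vs Model, from 26 to between 0 and 76 in Ctrl_Swim vs Ctrl, from 665 to between 203 and 939 for the average, and from 0 to up to 249 for the interaction.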
